A study of Mus musculus with 10 samples.

Results

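The genes described here are 8 long noncoding RNAs (lncRNAs), either nuclear and abundant in many tissues or transcribed from imprinted domains: Malat1, Neat1, Kcnq1ot1, Meg3, Rian, Mirg, H19 and Airn. They were taken by their mouse gene symbols from a table of raw read counts that lists 55401 genes, and all 8 were found there. RNA-Seq had been performed on 10 subcutaneous tumors of KPN1.1, a mouse lung adenocarcinoma line, to ask how a GLP-1 receptor agonist changes tumor gene expression in obesity. All host mice were male C57BL/6J with diet-induced obesity, between 7 and 17 weeks of age, and received the cells under the skin. From the time a tumor was palpable, 5 mice were injected daily into the peritoneum with liraglutide at 0.2 μg/g and 5 with PBS (vehicle). Tumors were taken between days 19 and 22, or when they had reached 2000 mm3. Both groups carried the same line, which holds the NINJA neoantigen cassette, so the comparison covers 1 line and 1 tumor per mouse, with no lean mice.

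Malat1 is a nuclear RNA of splicing speckles, and Neat1 is the scaffold of the nuclear bodies called paraspeckles. The other 6 come from imprinted domains, in which a gene is transcribed mainly from the maternal or the paternal chromosome. In the mouse, Kcnq1ot1 and Airn are transcribed from the paternal copy, antisense to Kcnq1 and Igf2r, and silence neighboring genes on the same chromosome, whereas H19 and the Meg3, Rian and Mirg series are transcribed from the maternal copy. H19 is the host of a miRNA, Rian is a host of small nucleolar RNAs, and Mirg is a host of a miRNA cluster. The counts do not separate the parental alleles, so imprinting itself was not measured.

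Malat1 (ENSMUSG00000092341.3) is annotated in 1 exon block of 7886 bases on chromosome 19 (GRCm39, minus strand, 5845717 to 5853602). Neat1 (ENSMUSG00000092274.3) lies on the same strand of the same chromosome, from 5874736 to 5897132. Kcnq1ot1 (ENSMUSG00000101609.2; chromosome 7, 142731402 to 142850327, minus strand) and H19 (ENSMUSG00000000031.16; chromosome 7, 142129262 to 142133957, minus strand) lie in adjoining imprinted domains. Meg3 (ENSMUSG00000021268.17; 109506877 to 109538165), Rian (ENSMUSG00000097451.11; 109570242 to 109628150) and Mirg (ENSMUSG00000097391.8; 109696198 to 109715898) follow each other on the plus strand of chromosome 12. Airn (ENSMUSG00000078247.5) spans 119102 bases of chromosome 17 (plus strand, 12960198 to 13079299), of which 10545 are exonic in the annotation used here. The version suffixes are those of the raw counts, whereas positions and exons are from GENCODE M39. Of 51731 identifiers matched to it, 35 had the same version, so the gene models counted may differ from those given.

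The promoter windows of Airn, the RNA of the 8 with the largest difference between treatments, and of Igf2r, its antisense partner, are shown with that of Meg3, the first of the 3 transcripts of the chromosome 12 series. Each holds 250 bases before and 50 after the RefSeq start of transcription, on GRCm38.p6 (a different build from the positions above), 5′ to 3′ on the strand of the gene, with CG dinucleotides in capitals. The window of Airn is chr17:12741061-12741360 (plus strand), that of Igf2r is chr17:12769657-12769956 (minus strand), and the first of Meg3 is chr12:109540746-109541045 (plus strand).
Airn: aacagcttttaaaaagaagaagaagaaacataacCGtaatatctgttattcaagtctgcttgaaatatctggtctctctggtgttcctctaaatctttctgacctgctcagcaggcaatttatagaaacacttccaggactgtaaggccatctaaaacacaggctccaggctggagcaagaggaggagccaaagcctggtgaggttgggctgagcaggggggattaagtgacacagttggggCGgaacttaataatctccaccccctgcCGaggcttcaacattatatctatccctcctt
Igf2r: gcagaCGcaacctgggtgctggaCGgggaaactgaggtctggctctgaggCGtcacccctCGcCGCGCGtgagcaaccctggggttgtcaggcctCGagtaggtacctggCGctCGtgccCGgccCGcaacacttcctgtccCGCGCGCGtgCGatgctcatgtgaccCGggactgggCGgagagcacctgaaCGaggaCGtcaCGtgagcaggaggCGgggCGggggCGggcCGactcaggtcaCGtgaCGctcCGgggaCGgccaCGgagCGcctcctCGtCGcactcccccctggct
Meg3: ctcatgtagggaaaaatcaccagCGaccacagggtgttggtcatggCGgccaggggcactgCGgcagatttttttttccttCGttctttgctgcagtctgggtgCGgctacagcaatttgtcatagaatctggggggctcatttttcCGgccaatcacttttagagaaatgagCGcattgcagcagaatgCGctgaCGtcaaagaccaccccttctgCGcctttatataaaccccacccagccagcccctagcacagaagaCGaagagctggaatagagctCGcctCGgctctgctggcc
The Airn window held 3 CG dinucleotides, the Igf2r window 34 and this Meg3 window 13, against a median of 7 over 32851 such windows, and 76.7%, 7.73% and 37.9% of windows held as many or more. The letters TATAAA, searched on both strands, were in the windows of Airn and Meg3 shown here and not in that of Igf2r, and 13.6% of all windows held them. A second RefSeq window of Meg3, chr12:109545148-109545447, held 1 CG, with as many or more in 94.6% of windows, and no TATAAA. Of the 8 lncRNAs, 6 had a window. These matches describe the letters only.

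Mature miRNAs encoded inside Mirg and H19 are shown because the counts of their genes bear on what is measured at the hosts. Letters 2 to 8, the seed, are in capitals, and the sequences are from RefSeq (GRCm38.p6).
mmu-miR-453: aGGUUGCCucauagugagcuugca
mmu-miR-496a-5p: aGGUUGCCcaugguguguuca
mmu-miR-675-5p: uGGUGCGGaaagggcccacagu
The first pair, both from Mirg, share the seed GGUUGCC. In total RNA libraries of this kind, 20 miRNA genes inside these lncRNAs were listed, of which 5 had any count. All 5 lie in Mirg and together held 15 counts over the 10 tumors, among them 6 for Mir453 and 5 for Mir496a. Mir675, inside H19, had 0 counts in every tumor, as did the 8 listed small nucleolar RNA genes inside Rian. The values below are those of the host transcripts.

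The libraries held 9927942 to 14480593 counts, so that 3 counts, the smallest level called detectable here, amounted to 0.207 to 0.302 CPM (counts scaled to a common library size). CPM was scaled by TMM factors of 0.952 to 1.05, and these floors cover counting error only. Vehicle tumors 1 and 2 and liraglutide tumor 2 stood apart from the other 7: the median deviation of expressed genes on chromosome 12 was 0.21 to 0.33 (log2 CPM) in these 3 and at or below -0.02 in the others. For chromosome 19 genes it was 0.18 to 0.21 in these 3, and for chromosome 14 genes it was -0.22 to -0.39, in both cases apart from the other 7. Markers of lung epithelium ranged from Krt8, at 1626 to 3284 CPM, to Sftpc, at 0 to 5.94 CPM, and Col3a1 of fibroblasts reached 521 to 1477 CPM. The tumors hold KPN1.1 and host cells, both of mouse, and in such bulk RNA fewer cells of a type cannot be told apart from less RNA per cell.

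**Figure D1:**
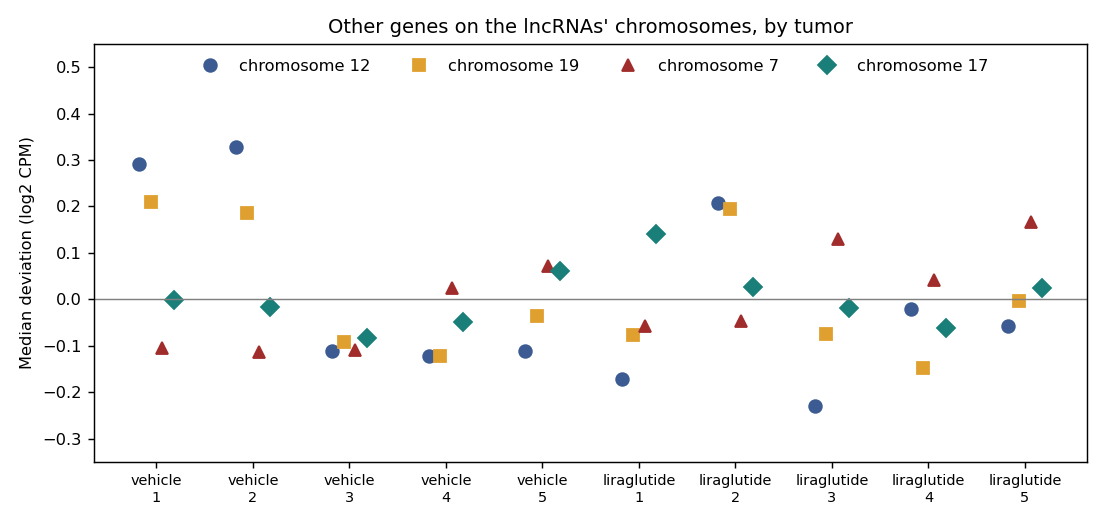
Median deviation of expressed genes from their mean over the tumors (y axis, log2 CPM), for the 4 chromosomes that carry the lncRNAs, in each of the 10 tumors (x axis); the lncRNAs are left out. On chromosome 12 (circles) and 19 (squares), vehicle tumors 1 and 2 and liraglutide tumor 2 lie at 0.18 to 0.33 and the other 7 tumors at or below 0, while chromosome 17 (diamonds) is at 0.14 in liraglutide tumor 1 and between -0.08 and 0.06 in the others.

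The label "abundant" held for Malat1 and Neat1. By mean CPM, Malat1 ranked 1 of all genes, Neat1 ranked 5 and Kcnq1ot1 ranked 239, whereas Meg3 and Mirg ranked 12822 and 13778. Genes were also compared per kilobase of exon. The exon lengths are those of GENCODE M39 and may differ from the gene models counted, which would move these values and their order. Malat1 averaged 3918 ± 427 CPM per kb (SD, n = 10), Neat1 311 ± 105 and Kcnq1ot1 5.21 ± 1.42. H19 followed with 4.06 ± 1.97 CPM per kb and Airn with 2.80 ± 1.13. The lowest were Rian with 0.266 ± 0.083, Mirg with 0.263 ± 0.099 and Meg3 with 0.183 ± 0.055 CPM per kb. In this order, Malat1 was above Neat1 and Neat1 above Kcnq1ot1 in every tumor without overlap of their ranges, and Airn was above Rian likewise. Kcnq1ot1, H19 and Airn overlapped with their neighbors, as did Rian, Mirg and Meg3. On that scale, 99.8% of tested genes were below Neat1, 61.9% below Kcnq1ot1, 54.8% below H19 and 44.2% below Airn, against 4.26% below Rian and 2.22% below Meg3.

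Malat1 alone took 2.63% to 3.65% of all counts in a tumor. In vehicle tumors 1 to 5 its share was 2.81%, 3.48%, 2.63%, 3.65% and 3.02%, and in liraglutide tumors 1 to 5 it was 2.95%, 3.13%, 3.33%, 2.75% and 3.14%. The liraglutide values all lay within the vehicle range. The 95% Wilson interval of vehicle tumor 2, from 3.47% to 3.49%, was narrow beside the spread between tumors. The mean share was 3.12% ± 0.43 in the vehicle and 3.06% ± 0.22 in the liraglutide group (SD, n = 5), a difference of -0.06 percentage points (two-sided exact permutation p = 0.778). Neat1 took 0.636% ± 0.304 in the vehicle and 0.759% ± 0.160 in the liraglutide group (exact permutation p = 0.460). The 8 RNAs together held 3.11% to 4.34% of counts and 74.1% to 79.9% of the counts on annotated lncRNAs, Malat1 alone holding 56.6% to 67.1%. The 6 imprinted RNAs summed to 0.033% to 0.071% of counts.

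**Figure D2:**
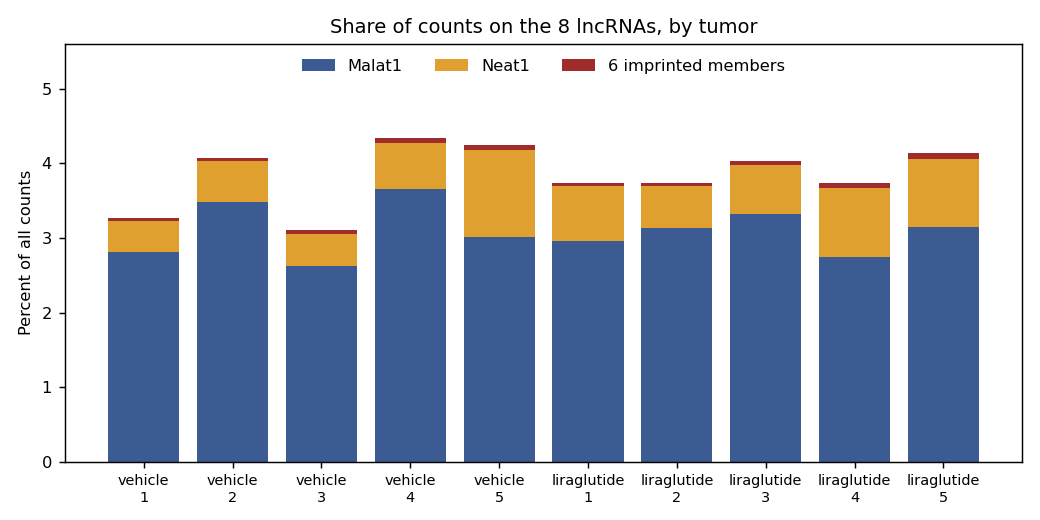
Percent of all counts (y axis, from 0) on Malat1, Neat1 and the sum of the 6 imprinted lncRNAs, stacked, in each of the 10 tumors (x axis). Malat1 makes up 2.63% to 3.65% in every tumor, and Neat1 is largest in vehicle tumor 5, at 1.16%.

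No lncRNA of the 8 differed between treatments at an adjusted p under 0.05 (edgeR quasi-likelihood test, Benjamini-Hochberg over 17464 genes, all 8 of them tested). No gene of the 17464 did (percent called 0; smallest adjusted p 0.482), although 1677 had an unadjusted p under 0.05 (9.6%). DESeq2 called 27 of 7201 genes (0.375%), none of them among Malat1, Neat1, Kcnq1ot1 and Airn, while its filter on low counts gave Meg3, Rian, Mirg and H19 no adjusted p. Of the 8 lncRNAs, 1 had an unadjusted p under 0.05, and it was higher with liraglutide, where 3.97% of all tested genes were. None of the 8 had groups without overlap, against 1.49% of tested genes (0.607% higher and 0.888% lower with liraglutide). Of the 8, 5 had a positive log2 fold change, as did 47.4% of all tested genes. The median log2 fold change was 0.08 over the 8 and -0.02 over all tested genes, and p-values measure the spread between tumors of separate mice.

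Airn had the largest difference among the 8. In vehicle tumors 1 to 5 it was at 16.1, 18.1, 16.0, 31.2 and 26.4 CPM, and in liraglutide tumors 1 to 5 at 53.7, 28.3, 35.5, 28.3 and 41.6 CPM. Liraglutide tumors 1, 3 and 5 lay above every vehicle tumor, and liraglutide tumors 2 and 4 lay between vehicle tumors 5 and 4. The means were 21.6 ± 6.87 and 37.5 ± 10.6 CPM (SD, n = 5 each), a log2 fold change of 0.80 (SE 0.24, 1.74-fold; edgeR unadjusted p = 0.0067, adjusted p = 0.482). The exact permutation p for this value alone was 0.0317 with 5 tumors each, where 0.00794 is the smallest the design allows. The fold change stayed positive when each tumor was left out in turn, between 0.63 without liraglutide tumor 1 and 0.98 without vehicle tumor 4, and was 0.69 without the 3 tumors that stood apart. DESeq2 gave a log2 fold change of 0.80 with an adjusted p of 0.100. Liraglutide tumor 1, with the highest Airn, also had the highest chromosome 17 level (the median log2 deviation of its genes), 0.14 against at most 0.06 in the other tumors. Airn and that level had r = 0.60 over the 10 tumors (permutation p = 0.0656, adjusted p = 0.263 over 8 relations) and rho = 0.43 (permutation p = 0.220), and r = 0.02 without the 2 tumors farthest from the median. The part of this chromosome level in the Airn difference was not tested.

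**Figure D3:**
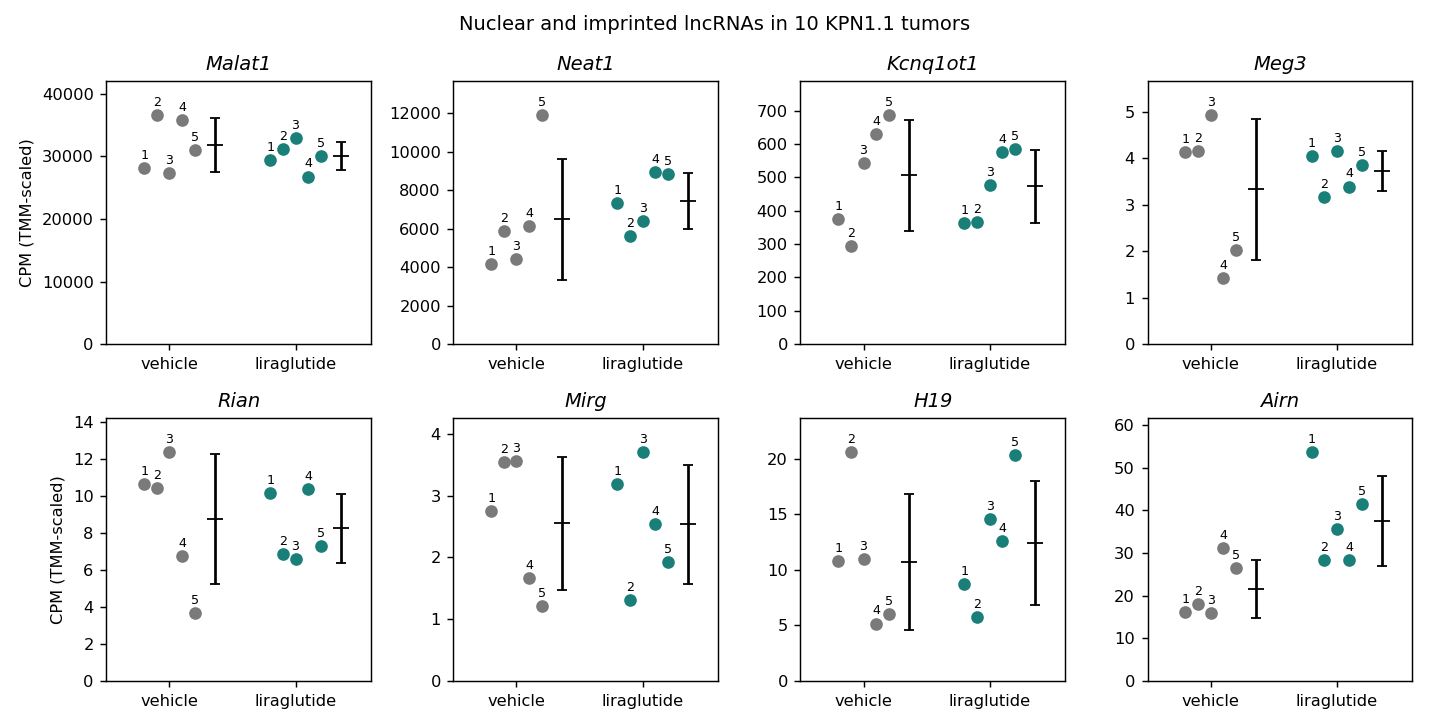
TMM-scaled CPM (y axes, each from 0) of the 8 lncRNAs, with 1 point per tumor labelled by its number, vehicle in grey and liraglutide in green; black marks give the group mean ± SD (n = 5 each). The groups overlap for every RNA, and for Airn 3 of 5 liraglutide tumors lie above all vehicle tumors.

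The genes counted within or across the span of Airn had higher means with liraglutide as well. Igf2r, which encodes the receptor that clears insulin-like growth factor 2 and carries mannose 6-phosphate ligands, is transcribed from the opposite strand and shares 28417 bases with the span but no exonic base. It was at 201 ± 35.4 CPM in the vehicle and 242 ± 14.8 CPM in the liraglutide group, a log2 fold change of 0.27 (SE 0.12; edgeR unadjusted p = 0.0448, adjusted p = 0.515). The groups overlapped, from 168 to 259 CPM and from 220 to 260 CPM. Without the 3 tumors that stood apart, the log2 fold change of Igf2r was 0.15. Slc22a2 and Slc22a3 of the same domain, which encode organic cation transporters, had 0 and 19 counts over all tumors and were not tested.

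A further 5 genes inside or across the Airn span were tested, named here after their values were seen. Gm16574, a processed pseudogene on the same strand, was at 2.57 ± 0.58 CPM with vehicle and 4.92 ± 1.86 CPM with liraglutide, a log2 fold change of 0.93 (edgeR adjusted p = 0.482). The log2 fold changes of those on the opposite strand were 0.45 for Gm49959, 0.66 for Gm49958, 0.73 for Gm7162 and 1.17 for Mas1, a G protein-coupled receptor gene, with edgeR adjusted p of 0.499 to 0.593. Over the 10 tumors their levels followed that of Airn, with Pearson r between 0.84 and 0.92. Like Igf2r, these 5 genes share no exonic base with Airn in the annotation used here, and the counting is not stated to use strand. Whether their counts, those of Gm16574 on the same strand among them, include reads of Airn outside its exons was not tested.

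**Figure D4:**
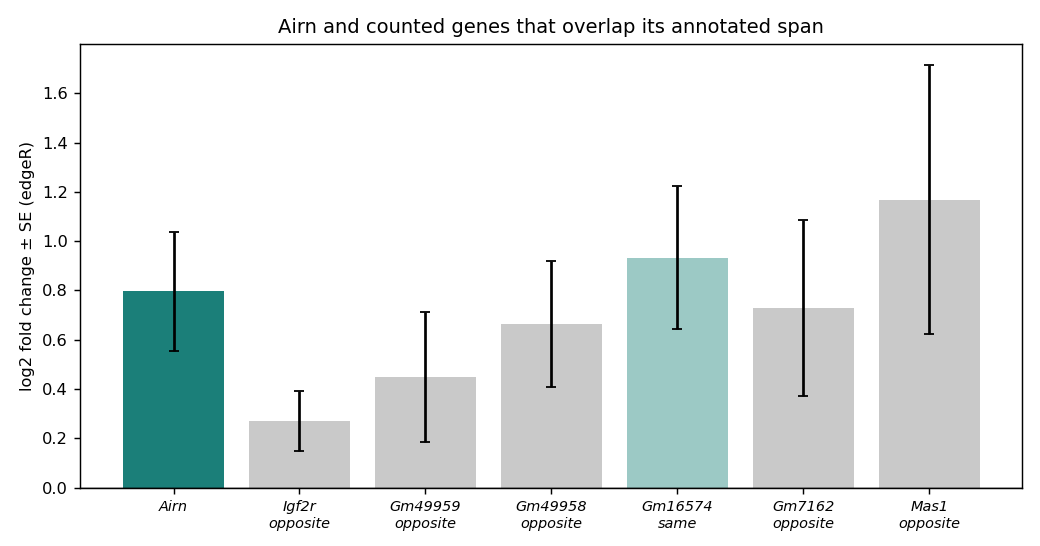
The log2 fold change, liraglutide over vehicle (y axis), with its SE from the edgeR fit, of Airn (dark), the same-strand gene Gm16574 (light green) and the opposite-strand genes that overlap the Airn span (grey). The bars of all 7 genes lie above 0, from 0.27 for Igf2r to 1.17 for Mas1, and none passes an adjusted p of 0.05.

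The ratio of Airn to Igf2r, taken within each library and so free of scaling, had a geometric mean of 0.105 with vehicle and 0.150 with liraglutide. In vehicle tumors it was 0.096, 0.101, 0.082, 0.154 and 0.102, and in liraglutide tumors 0.219, 0.119, 0.137, 0.129 and 0.169. All liraglutide tumors were above vehicle tumors 1, 2, 3 and 5, and vehicle tumor 4 fell among the liraglutide tumors. The difference of 0.52 (log2) had an exact permutation p of 0.0476 with 5 tumors each, and 0.286 after adjustment over the 6 ratios computed. The unadjusted p passed 0.05 when any 1 of 7 tumors was left out (vehicle tumors 1, 2, 3 and 5, liraglutide tumors 1, 3 and 5), reaching an exact permutation p of 0.0952. Without the 3 tumors that stood apart the exact permutation p was 0.143. Across the tumors Airn and Igf2r correlated with r = 0.78 (permutation p = 0.0093, adjusted p = 0.126) and rho = 0.67 (permutation p = 0.0386, adjusted p = 0.383), and r was 0.81 without the 2 tumors farthest from the median of Airn. With the group means subtracted r was 0.58, and it was 0.65 within the vehicle and 0.51 within the liraglutide tumors.

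In CPM, Malat1 was at 28064, 36540, 27315, 35867 and 31003 in vehicle tumors 1 to 5. It was at 29352, 31120, 32945, 26775 and 30014 in liraglutide tumors 1 to 5. All but liraglutide tumor 4 lay within the vehicle range, and the highest tumor had 1.36 times the level of the lowest, the narrowest range of the 8 RNAs. Malat1 had a log2 fold change of -0.08 (SE 0.12; edgeR adjusted p = 0.828; exact permutation p = 0.452, n = 5 each).

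Neat1 was at 4139, 5873, 4415, 6144 and 11878 CPM in vehicle tumors 1 to 5. In liraglutide tumors 1 to 5 it was at 7350, 5623, 6406, 8928 and 8821 CPM. Vehicle tumor 5 was far above the other vehicle tumors and above every liraglutide tumor, and the other 4 vehicle tumors lay below 4 of the 5 liraglutide tumors. Neat1 had a log2 fold change of 0.19 (SE 0.27; edgeR adjusted p = 0.819; exact permutation p = 0.381, n = 5 each). Without vehicle tumor 5 it was 0.54 (SE 0.18; edgeR unadjusted p = 0.0136, adjusted p = 0.312), whereas it was 0.068 without vehicle tumor 1 and 0.088 without vehicle tumor 3. The size of the value thus depends on single vehicle tumors.

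The ratio of Neat1 to Malat1 was 0.147, 0.161, 0.162, 0.171 and 0.383 in vehicle tumors, and 0.250, 0.181, 0.194, 0.333 and 0.294 in liraglutide tumors. Vehicle tumor 5 had the highest ratio, and the other 4 vehicle tumors had the 4 lowest of all 10. The log2 difference was 0.36 (exact permutation p = 0.294, n = 5 each; adjusted p = 0.457 over 6 ratios) and 0.61 without vehicle tumor 5 (exact permutation p = 0.0238). Of the genes around them on chromosome 19, Frmd8 had a log2 fold change of -0.05 and Ltbp3, which encodes a latent TGF-β binding protein, of -0.25 (edgeR adjusted p of 0.942 and 0.837).

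Proteins of the bodies these RNAs belong to were counted from lists. Of 21 paraspeckle protein genes tested, 0 passed an adjusted p under 0.05 in edgeR and 1 had an unadjusted p under 0.05, in the lower direction (5.63% of all tested genes were lower by that rule). The median log2 fold change was -0.14, against -0.02 over all tested genes. There were 17 negative and 4 positive values, where 47.4% of all tested genes were positive. The smallest p belonged to Rbm7, an RNA-binding subunit of nuclear exosome targeting, at 66.2 ± 6.53 CPM with vehicle and 54.98 ± 1.43 with liraglutide (log2 fold change -0.27; edgeR adjusted p = 0.482; groups without overlap, as for 0.888% of tested genes in this direction), and then to Cpsf6, a cleavage and polyadenylation factor (log2 fold change -0.31; edgeR adjusted p = 0.529). Of 23 nuclear speckle protein genes tested, 4 had an unadjusted p under 0.05, all lower, with a median of -0.13 (-0.082 without vehicle tumor 2) and 20 negative values. Clk1, a kinase of splicing factors, had a log2 fold change of -0.33 and Srsf10, a splicing factor, of -0.33 (edgeR adjusted p = 0.482 for both).

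Genes for the 3′ end processing and m6A methylation of Malat1 numbered 12 tested, with a median log2 fold change of -0.05 and 1 unadjusted p under 0.05, where 9.6% of all tested genes had one. This median was -0.0075 without liraglutide tumor 1, -0.018 without vehicle tumor 1, -0.019 without liraglutide tumor 3 and 0.0082 with scaling by library size alone, so its sign is not settled. The gene with that p was Rpp38, a subunit of RNase P, at 7.84 ± 1.34 CPM with vehicle and 5.54 ± 0.52 with liraglutide (log2 fold change -0.50; edgeR adjusted p = 0.482), followed by Rpp30 (-0.25; adjusted p = 0.605). The other nuclear noncoding RNAs numbered 7 tested, with none at an unadjusted p under 0.05 and a median of -0.13, which was -0.042 without liraglutide tumor 3 and -0.062 without vehicle tumor 1. Among them Pvt1 had a log2 fold change of -0.25 and Rpph1, the RNA of RNase P, of -0.28 (edgeR adjusted p of 0.590 and 0.609).

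Kcnq1ot1 was at 376, 294, 542, 631 and 686 CPM in vehicle tumors 1 to 5. In liraglutide tumors 1 to 5 it was at 363, 365, 476, 576 and 584 CPM. Every liraglutide tumor was within the vehicle range. Its log2 fold change was -0.10 (SE 0.24; edgeR adjusted p = 0.902; exact permutation p = 0.825, n = 5 each), and it was -0.31 without the 3 tumors that stood apart. In the Kcnq1 domain 8 of 9 genes were tested, of which 6 had positive and 2 negative values (47.4% of all tested genes were positive), with a median log2 fold change of 0.31. Osbpl5, an oxysterol-binding protein gene, was the 1 gene with an unadjusted p under 0.05 (3.97% of all tested genes were higher by that rule), at 39.6 ± 5.75 CPM with vehicle and 48.7 ± 3.28 with liraglutide (log2 fold change 0.30; edgeR adjusted p = 0.499).

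No gene of that domain passed the test. Cdkn1c, which encodes the cyclin-dependent kinase inhibitor p57, had a log2 fold change of 0.56. Those of Phlda2, a placental growth-restraining gene, and of Kcnq1, a potassium channel gene, were 0.34 and 0.33. Cd81, a tetraspanin gene, had 0.39 and the transporter gene Slc22a18 had 0.23 on the same scale, while Tssc4 had -0.03 and Nap1l4, a histone chaperone gene, had -0.14. Ascl2, a transcription factor gene, had 3 counts in all. Kcnq1ot1 is antisense to Kcnq1, and 0.889% of its exonic bases overlap exons of Kcnq1. The ratio of Kcnq1ot1 to Cdkn1c ranged from 70.2 to 493 with vehicle and from 85.6 to 178 with liraglutide, a log2 difference of -0.67 (exact permutation p = 0.270, n = 5 each; adjusted p = 0.457). The size of this difference depends on single tumors: it was -0.32 (exact permutation p = 0.563) without vehicle tumor 3 and -1.02 (exact permutation p = 0.0794) without vehicle tumor 2, and -1.39 (exact permutation p = 0.0286) without the 3 tumors that stood apart.

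Meg3 was at 4.13, 4.14, 4.92, 1.42 and 2.03 CPM in vehicle tumors 1 to 5 and at 4.05, 3.17, 4.16, 3.39 and 3.86 CPM in liraglutide tumors 1 to 5. Vehicle tumors 4 and 5 lay below all others. These are counts of 17 to 60 reads per tumor, for which the counting error alone is 24.3% to 12.9%. Meg3 had a log2 fold change of 0.17 (SE 0.31; edgeR adjusted p = 0.869; exact permutation p = 0.460, n = 5 each).

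Rian was at 10.6, 10.4, 12.4, 6.76 and 3.65 CPM in vehicle tumors 1 to 5, and at 10.2, 6.84, 6.58, 10.4 and 7.27 CPM in liraglutide tumors 1 to 5. Vehicle tumor 5 was lowest, and the log2 fold change was -0.09 (SE 0.30; edgeR adjusted p = 0.936; exact permutation p = 0.984, n = 5 each). Mirg was at 2.75, 3.54, 3.56, 1.67 and 1.22 CPM with vehicle and at 3.19, 1.30, 3.70, 2.54 and 1.93 CPM with liraglutide. Liraglutide tumor 2 and vehicle tumor 5 were the lowest of the 10, and Mirg had a log2 fold change of 0.00 (SE 0.35; edgeR adjusted p = 0.999; exact permutation p = 0.968, n = 5 each). The protein-coding genes of the domain were at or near 0: Dlk1, a growth and differentiation regulator, had 24 counts over all tumors, Dio3, a thyroid hormone deiodinase gene, had 39, and Rtl1, a retrotransposon-derived gene, had 0.

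H19 was at 10.8, 20.6, 10.99, 5.17 and 6.01 CPM in vehicle tumors 1 to 5 and at 8.70, 5.78, 14.6, 12.6 and 20.3 CPM in liraglutide tumors 1 to 5. Both groups had a tumor above 20 CPM and a tumor below 6 CPM. The log2 fold change was 0.22 (SE 0.41; edgeR adjusted p = 0.871; exact permutation p = 0.579, n = 5 each), the widest SE of the 8. It was 0.93 without the 3 tumors that stood apart (edgeR unadjusted p = 0.0257, adjusted p = 0.696). Igf2, the reciprocally imprinted growth factor gene next to H19, had 3 counts in all 10 tumors together, Nctc1 had 42 and Ins2 had 0.

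**Figure D5:**
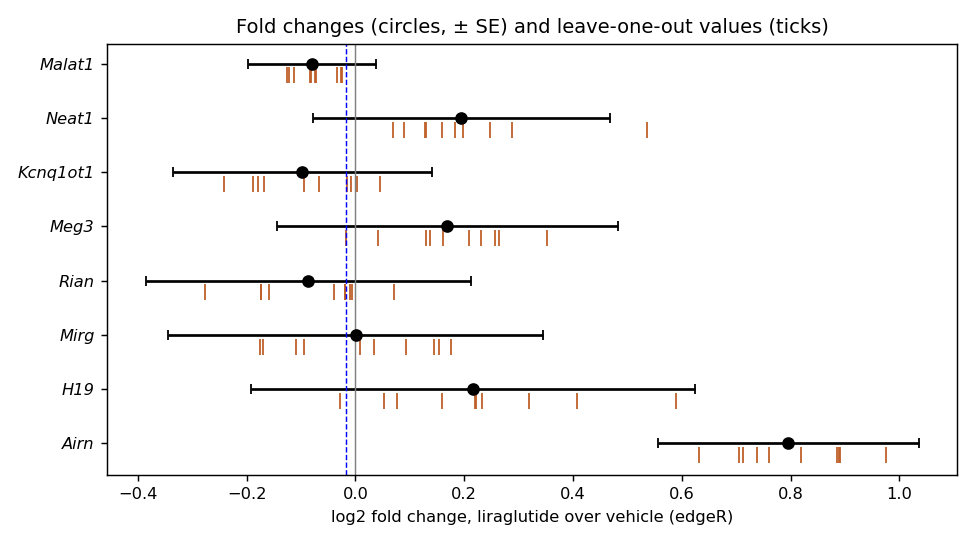
The log2 fold change of each lncRNA, liraglutide over vehicle (x axis), with its SE from the edgeR fit (black circles and bars) and the 10 values found when each tumor was left out in turn (ticks); the dashed line is the median of all tested genes, -0.02. The Airn values lie between 0.63 and 0.98, the Neat1 tick at 0.54 is without vehicle tumor 5, and the ticks of Kcnq1ot1, Meg3, Rian, Mirg and H19 fall on both sides of 0.

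Of the other imprinted genes listed, 14 were tested, with 7 positive and 7 negative values, a median log2 fold change of -0.01 and none at an unadjusted p under 0.05. The sign and size of this median depend on single tumors, as it was -0.16 without vehicle tumor 5, 0.082 without vehicle tumor 2 and 0.17 without the 3 tumors that stood apart. Peg13, an imprinted lncRNA, had a log2 fold change of 0.61 (edgeR adjusted p = 0.527) and Mest, an imprinted hydrolase gene, of -0.59 (edgeR adjusted p = 0.529). Of 13 genes that maintain imprints or silence chromatin, all tested, 1 had an unadjusted p under 0.05, where 9.6% of all tested genes had one. The smallest p was that of Suz12, a Polycomb repressive complex subunit, at 185 ± 23.7 CPM with vehicle and 148 ± 13.6 with liraglutide (log2 fold change -0.33; edgeR adjusted p = 0.482). Eed, of the same complex, had a log2 fold change of -0.16 (edgeR adjusted p = 0.565). The lncRNAs as a class, 1763 tested, had 51 higher and 56 lower values at an unadjusted p under 0.05 and a median of -0.01.

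To see which RNAs varied together from tumor to tumor, 32 relations among the 8 RNAs and their domain genes were computed, and among the 3 chromosome 12 RNAs every r was positive. Meg3 and Mirg had r = 0.73 (permutation p = 0.0118, adjusted p = 0.126) and rho = 0.93 (permutation p = 5e-04, adjusted p = 0.016), and r = 0.79 without the 2 tumors farthest from the median of Meg3. Rian and Mirg had r = 0.74 (permutation p = 0.0116, adjusted p = 0.126) and rho = 0.49 (permutation p = 0.156), falling to r = 0.52 without 2 tumors. For Meg3 and Rian, r was 0.66 (permutation p = 0.0401, adjusted p = 0.218) and rho 0.59 (permutation p = 0.0808), with r = 0.51 without 2 tumors. Within the 5 liraglutide tumors, r was -0.04 for Meg3 and Rian and 0.31 for Rian and Mirg, against 0.78 and 0.96 within the 5 vehicle tumors, while Meg3 and Mirg had 0.80 with liraglutide and 0.88 with vehicle. No r of the 32 passed the adjustment, and 7 had an unadjusted p under 0.05.

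H19, on another chromosome, varied with Meg3, with r = 0.70 (permutation p = 0.0177, adjusted p = 0.141) and rho = 0.66 (permutation p = 0.0446, adjusted p = 0.383), but r = 0.35 without the 2 tumors farthest from the median of Meg3, so that the relation rests on those. Neat1 and Rian had r = -0.64 (permutation p = 0.0466, adjusted p = 0.218) and rho = -0.58 (permutation p = 0.0878), and r = -0.19 without 2 tumors. This r was -0.95 within the vehicle tumors and 0.57 within the liraglutide tumors. The r of Malat1 with the other RNAs lay between -0.44 with Meg3 and 0.08 with Airn. The ratio of Rian to Meg3 ranged from 1.58 to 4.66 and that of Mirg to Meg3 from 0.418 to 1.17, and neither differed between groups (exact permutation p of 0.381 and 0.325, n = 5 each).

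The levels were also set beside the sums of markers of 6 cell types and the shares of mitochondrially encoded and of ribosomal protein counts, a family of 64 relations. Of these, 12 had an unadjusted p under 0.05 and 0 an adjusted one: 4 with fibroblast, 4 with endothelial and 1 with leukocyte markers, and 3 with the shares. Fibroblast markers, 7 genes all detected in every tumor, summed to 1395 to 3486 CPM with vehicle and 1888 to 3536 CPM with liraglutide. They were lowest in vehicle tumors 4 and 5, the tumors with the lowest Meg3. Most of this sum came from Col3a1, Col1a1 and Col1a2, with medians of 1145, 935 and 744 CPM. The medians of Dcn, Lum, Pdgfra and Thy1 were 34.9, 14.2, 24.8 and 37.4 CPM. The relation of Meg3 with the fibroblast sum was r = 0.87 (permutation p = 0.00246, adjusted p = 0.0942) with rho = 0.54 (permutation p = 0.113), and r = 0.47 without the 2 tumors farthest from the median. Rian had r = 0.80 with it (permutation p = 0.00385, adjusted p = 0.0942) and rho = 0.65 (permutation p = 0.0485), and r = 0.76 without 2 tumors. H19 had r = 0.77 with the fibroblast sum (permutation p = 0.0105, adjusted p = 0.0942) and rho = 0.58 (permutation p = 0.0883), and Mirg had r = 0.75 (permutation p = 0.0151, adjusted p = 0.0969) and rho = 0.50 (permutation p = 0.144).

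The same 4 RNAs had an unadjusted p under 0.05 with the endothelial markers, 6 genes that summed to 100.4 to 163 CPM with vehicle and 103 to 130.01 CPM with liraglutide. Meg3 had r = 0.76 with this sum (permutation p = 0.0118, adjusted p = 0.0942) and rho = 0.75 (permutation p = 0.0177), and r = 0.77 without 2 tumors. H19 had r = 0.76 (permutation p = 0.00993, adjusted p = 0.0942) and rho = 0.83 (permutation p = 0.00469, adjusted p = 0.300), and r = 0.60 without 2 tumors. Mirg had r = 0.76 (permutation p = 0.011, adjusted p = 0.0942) and Rian r = 0.69 (permutation p = 0.0283, adjusted p = 0.165), with rho of 0.61 and 0.73. The part of fibroblasts and endothelium in the levels of these RNAs was not tested.

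Kcnq1ot1 moved with the summed leukocyte markers, 204 to 382 CPM with vehicle and 231 to 423 CPM with liraglutide (r = 0.83, permutation p = 0.00582, adjusted p = 0.0942; rho = 0.70, permutation p = 0.0304; r = 0.73 without 2 tumors). Of these 8 markers, Lyz2 was highest, at 122 to 244 CPM, while Cd3e, Nkg7 and Cd79a were at most 4.46, 2.84 and 0.707 CPM. Kcnq1ot1 also moved with the chromosome 7 level (the median log2 deviation of the other genes there). Its r was 0.64 (permutation p = 0.047, adjusted p = 0.263 over 8 relations) and its rho 0.65 (permutation p = 0.0477). Without the 2 tumors farthest from the median, r was 0.76. The part of either measure in the Kcnq1ot1 level was not tested. Airn moved opposite to the share of cytoplasmic ribosomal protein genes, with r = -0.80 (permutation p = 0.00603, adjusted p = 0.0942), rho = -0.76 (permutation p = 0.0145, adjusted p = 0.324) and r = -0.89 without 2 tumors. After the group means were subtracted this r was -0.56, and it was -0.90 within the vehicle and -0.19 within the liraglutide tumors. Neat1 had r = -0.64 with the same share (permutation p = 0.047, adjusted p = 0.251), and Malat1 had r = 0.74 with the mitochondrially encoded share (permutation p = 0.0147, adjusted p = 0.0969), falling to 0.12 without 2 tumors. The ribosomal protein share, over 78 genes, was 3.42% ± 0.41 of counts in the vehicle and 2.68% ± 0.34 in the liraglutide group (exact permutation p = 0.0317). Summed skeletal muscle markers were at 46.4 to 279 CPM with vehicle and 103 to 375 CPM with liraglutide, and keratinocyte markers at 9.02 to 20.3 and 7.15 to 215 CPM. The part of these values in the Airn difference was not tested.

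The genes whose pattern over the 10 tumors was most like that of each RNA, by Pearson r of log2 CPM among tested genes, are given as a description. For Airn they were Zfp318 (0.98), Stk38 (0.96) and Nherf2 (0.95), and of the 50 genes most like it 13 lay on chromosome 17, which holds 4.91% of tested genes. Of these 13, 4 (Gm49958, Gm7162, Gm49959 and Mas1) overlap the span of Airn but share no exonic base with it. Whether their counts include reads of Airn was not tested. For the other 7 RNAs, 0 to 4 of the 50 lay on their own chromosome. Meg3 was most like Ccn3 (0.98), a matricellular protein gene, and Itga11 (0.96), a collagen-binding integrin gene, followed by Gm20324 (0.94), and Rian was most like Sdk1 (0.96), Cox7a1 (0.96) and Proc (0.95). Kcnq1ot1 was most like Rasgrf2 (0.96), Dennd2d (0.96) and Sh3bgrl3 (0.95), and Neat1 most like A930037H05Rik (0.94), Mmp15 (0.94) and Mknk1 (0.94). Nearest to Mirg were Atp8b1 (0.93), Ptges (0.90) and Tmem218 (0.89), to H19 4930562D21Rik (0.97), Gm43921 (0.92) and Id4 (0.92), and to Malat1 9430081H08Rik (0.93), 3110009E18Rik (0.90) and Gm16577 (0.89).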

How the data were processed

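RNA was measured in 10 tumors, 5 with vehicle and 5 with liraglutide, grouped by the sample titles. Libraries were made from rRNA-depleted total RNA with random primers and a dUTP second strand, and sequenced as read pairs. The authors deposited raw counts per gene, whole numbers with no normalization, made by mapping to GRCm39 with Bowtie and TopHat and counting with featureCounts. The submitters' processing notes name mm10 and GRCh38 instead. The strand setting, the annotation release and the handling of multiply mapped reads are not given in the sources used here. Gene IDs, with version suffixes dropped, were looked up in GENCODE M39 (51731 of 55401, 93.4%, with 98.3% of counts), of which 35 had the same version, so lengths and overlaps may differ from the authors' gene models.

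Analyses used R 4.3.3. Genes were filtered with filterByExpr, normalized by TMM and tested by the quasi-likelihood F test of edgeR 4.0.16 with treatment as factor, after a check on simulated data. Log2 CPM used a prior count of 2, and ratios had 0.5 added to both counts. Single values were tested by two-sided exact permutation over all 252 groupings, and correlations by 100000 permutations. Counts per tumor (9927942 to 14480593) set the counting error, which intervals and floors alone cover. Alternatives were DESeq2 1.42.0 (default filtering, then none), voom in limma 3.58.1, other scalings and filters, a replicate block, and leaving out each tumor. Leaving out 3 tumors together, and the chromosome medians (genes over 5 CPM), were chosen after seeing the data. The members and lists were chosen with earlier results of these data known. The genes named are the 8 lncRNAs, the genes of their domains, the 2 smallest p of each other list, the 3 genes most alike to each RNA, and small RNA genes inside them. Set tests were not run, and some items are not reported here.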

Additional observations from a re-analysis of the deposited data

Results flagged for a closer look

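Among 30 groups of 5 values examined for a sample far from the others, 4 were marked, where chance marks about 1 in 20 groups. Neat1 in vehicle tumor 5, at 11878 CPM, was separated from the next vehicle tumor by a gap of 0.741 of the range of the group. The Neat1 to Malat1 ratio of the same tumor, 0.383, was marked as well. The Rian to Meg3 ratio of vehicle tumor 4, 4.66, rests on 17 Meg3 counts. The Airn to Igf2r ratio of vehicle tumor 4, 0.154, was the highest of its group. These gaps are on the linear scale. On the log2 scale, added after seeing the data, 1 of the 30 was marked, the Neat1 to Malat1 ratio of vehicle tumor 5 (a gap of 0.843 of the range, where 0.71 is the critical value), whereas the gap was 0.63 for Neat1, 0.63 for Rian to Meg3 and 0.66 for Airn to Igf2r. No explanation was tested for any of these.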

How the results depend on the processing

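edgeR called 0 genes under each scaling, filter and left-out tumor, as did limma-voom, whereas DESeq2 called 27 genes, and 11 without independent filtering; the cause was not tested. The log2 fold changes of Malat1, Neat1 and Airn kept their sign and stayed above an adjusted p of 0.05 under all 21 alternatives. With limma-voom Rian had 0.011 in place of -0.09, and with the 3 tumors that stood apart left out it had 0.18, while Meg3 had 0.49, Mirg 0.42 and Neat1 0.07. When each tumor was left out in turn, the range was 0.068 to 0.54 for Neat1, -0.13 to -0.025 for Malat1, 0.63 to 0.98 for Airn, -0.24 to 0.044 for Kcnq1ot1, -0.017 to 0.35 for Meg3, -0.28 to 0.071 for Rian, -0.18 to 0.18 for Mirg, -0.029 to 0.59 for H19, and -0.18 to 0.076 percentage points for the Malat1 share. For the log2 ratios it was -0.26 to 0.50 for H19 to Igf2, which rests on 3 Igf2 counts, 0.24 to 0.61 for Neat1 to Malat1, -1.02 to -0.32 for Kcnq1ot1 to Cdkn1c, -0.44 to -0.091 for Rian to Meg3, -0.40 to -0.12 for Mirg to Meg3 and 0.39 to 0.66 for Airn to Igf2r. The Airn to Igf2r difference was 0.55 (exact permutation p = 0.143) and the Kcnq1ot1 to Cdkn1c difference -1.39 with the 3 tumors left out. For the list medians it was -0.20 to -0.10 for paraspeckle proteins, -0.18 to -0.082 for speckle proteins, -0.060 to -0.0075 for Malat1 end processing, -0.19 to -0.042 for other nuclear noncoding RNAs, 0.24 to 0.41 for the Kcnq1 domain and -0.16 to 0.082 for other imprinted genes, and with library size alone these were -0.090, -0.075, 0.0082, -0.076, 0.37 and 0.052. At 15 to 60 counts per tumor, Meg3 and Mirg had counting errors of 12.9% to 25.8%, and their spread within groups was 4.30 and 4.87 times what counting gives (chi-square per degree of freedom).

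The groups share tumor numbers, but same-numbered tumors came from different mice and their deviations from the group means correlated at 0.354, 0.565, -0.075, 0.068 and 0.389, on average 0.260 against -0.068 for different numbers. As not every pair was over 0.1, the numbers were not taken as pairs, and 1 vehicle tumor correlated best with its own number. With the number as replicate block edgeR called 0 genes, with 2586 at an unadjusted p under 0.05 in place of 1677, Airn had a log2 fold change of 0.81 (adjusted p = 0.243), and the Airn to Igf2r difference of 0.52 had a sign-flip permutation p of 0.188, where 0.0625 is the smallest 5 pairs allow.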
